A study of Mus musculus with 5 samples.

Results

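The genes described are those of respiratory complexes II, III and IV together with cytochrome c. They were chosen by symbol: the subunit genes Sdha to Sdhd, Cyc1 and Cycs, the assembly factor genes Sdhaf1 to Sdhaf4, Bcs1l, Ttc19, Surf1, Sco1 and Sco2, and every protein-coding gene whose symbol starts with Uqcr, Uqcc or with Cox and a digit. This rule found 53 genes among the 53700 gene IDs counted. They comprise 4 subunits and 4 assembly factors of complex II, 9 subunits and 5 assembly factors of complex III, Cycs, and 18 subunits and 12 assembly factors of complex IV.

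Complex II (succinate dehydrogenase) oxidises succinate in the tricarboxylic acid cycle and passes the electrons to ubiquinone. Complex III moves electrons from ubiquinol to cytochrome c, and complex IV (cytochrome c oxidase) moves them from cytochrome c to oxygen. Complexes III and IV pump protons and complex II does not, and midbrain dopaminergic neurons, with their long unmyelinated axons and pacemaking, depend heavily on this chain.

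RNA was taken by BAC-TRAP (bacterial artificial chromosome translational affinity purification), in which tagged ribosomes are pulled down by an antibody together with the mRNA they carry, from midbrain of C57BL/6 mice aged 4 months. Every mouse, controls included, carried the L10a transgene, an EGFP-tagged ribosomal protein that is switched on by Cre, and every mouse was injected with AAV:THCre, a virus whose Cre is driven by a tyrosine hydroxylase promoter. The 3 control libraries (genotype L10a;Esrrg WT, replicates 2, 3 and 4) and the 2 knockout libraries (genotype L10a;Esrrg Flox, replicates 2 and 4) were each made from pooled mice, so p-values measure the spread between pools. Esrrg encodes estrogen-related receptor gamma (ERRγ), a nuclear receptor known to activate mitochondrial genes, and RNA was collected 1 month after its deletion. The Cre removes exon 2 of Esrrg, and reads from its other exons still counted toward the gene. The question was whether the genes of these complexes differ in ribosome-bound RNA after loss of Esrrg.

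The libraries held 20635855 to 23105058 counts assigned to genes. Esrrg itself had 1763, 1643 and 1726 normalized counts in WT 2, 3 and 4 and 1504 and 1170.1 in Flox 2 and 4, with both Flox libraries below all WT libraries (log2 fold change -0.35 with an SE of 0.13, adjusted p = 0.0753 by DESeq2). Flox 4 stood farthest from the other libraries, at 26.4 on the first principal component (60.2% of the variance) against 6.87 for Flox 2 and -15.6 to -7.74 for WT. The 11 dopaminergic markers summed to 2375 to 2742 CPM (counts per 1000000 counts assigned to genes) in WT and to 2369.9 and 2413 in Flox, and 1 of them (Ret) was lower. The 8 oligodendrocyte markers summed to 5127 to 7349 CPM and the 9 astrocyte markers to 2123 to 3133 CPM over all libraries, so transcripts of other cells were counted in every library. The 6 GABAergic markers summed to 1785 to 1811 CPM in WT, 1723 in Flox 2 and 1595 in Flox 4. Of these, Gad2 was lower (-0.35, DESeq2 adjusted p = 0.0302) and Sst higher (0.54, DESeq2 adjusted p = 0.0157), both on the log2 scale. Microglia markers moved with genotype: 10 of 12 were higher, and their sum was 69.6 to 136 CPM in WT, 237 in Flox 2 and 491 in Flox 4. Endothelial markers summed to 5.24 to 11.8 CPM in WT, 12.2 in Flox 2 and 29.8 in Flox 4, with 3 of the 7 tested higher. The part of these cells in the results below was not tested, and in such pooled RNA fewer cells of a type and less RNA per cell cannot be told apart.

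Of the 53 genes, 52 had at least 1 count, and 50 had an adjusted p in DESeq2 (Benjamini-Hochberg over 15724 genes). At an adjusted p under 0.05, 6 of the 50 were higher in Flox (Sdhaf4, Uqcrh, Uqcc2, Uqcc3, Cox14 and Cox17), or 12% against 4.2% of all genes tested. Another 3 were lower (Uqcrc1, Uqcrc2 and Cyc1), or 6.0% against 4.05%. With a fold change of at least 1.5 as well, Cox17 alone was higher, where the share over all genes was 1.77%, and 0 genes were lower by DESeq2, where it was 1.41%. At an unadjusted p under 0.05, 15 of the 50 were higher (30%, against 9.74% of all genes tested) and 6 lower (12%, against 10.6%, near the share of all genes). Both Flox libraries lay above all WT libraries for 17 of the 50 (34.0%, against 19.9% of all genes tested) and below them for 11 (22.0%, against 22.5%), so the share below was near that of all genes. The median log2 fold change was 0.11, beside -0.0063 over all genes tested.

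All 9 genes kept their direction under each of the 12 alternatives to this fit, but their calls depended on the test and on single libraries. With edgeR's quasi-likelihood test 0 of the 9 passed (adjusted p 0.0504 to 0.0968, with all 9 at an unadjusted p under 0.05), and over all genes it called 0.884% higher and 0.535% lower. Without Flox 4, where Flox is 1 library and the WT libraries alone give the spread, 0 of the 9 passed in DESeq2 and 5 kept an unadjusted p under 0.05. That fit called only 0.309% of 10689 genes higher and 0.365% lower, so 0 calls were near the share of all genes. Of the 9 genes, 8 had an adjusted p without Flox 4, and Cox17 had none. When WT 2 or WT 3 was left out, Cyc1 and Uqcrc2 were the 2 that still passed.

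**Figure D1:**
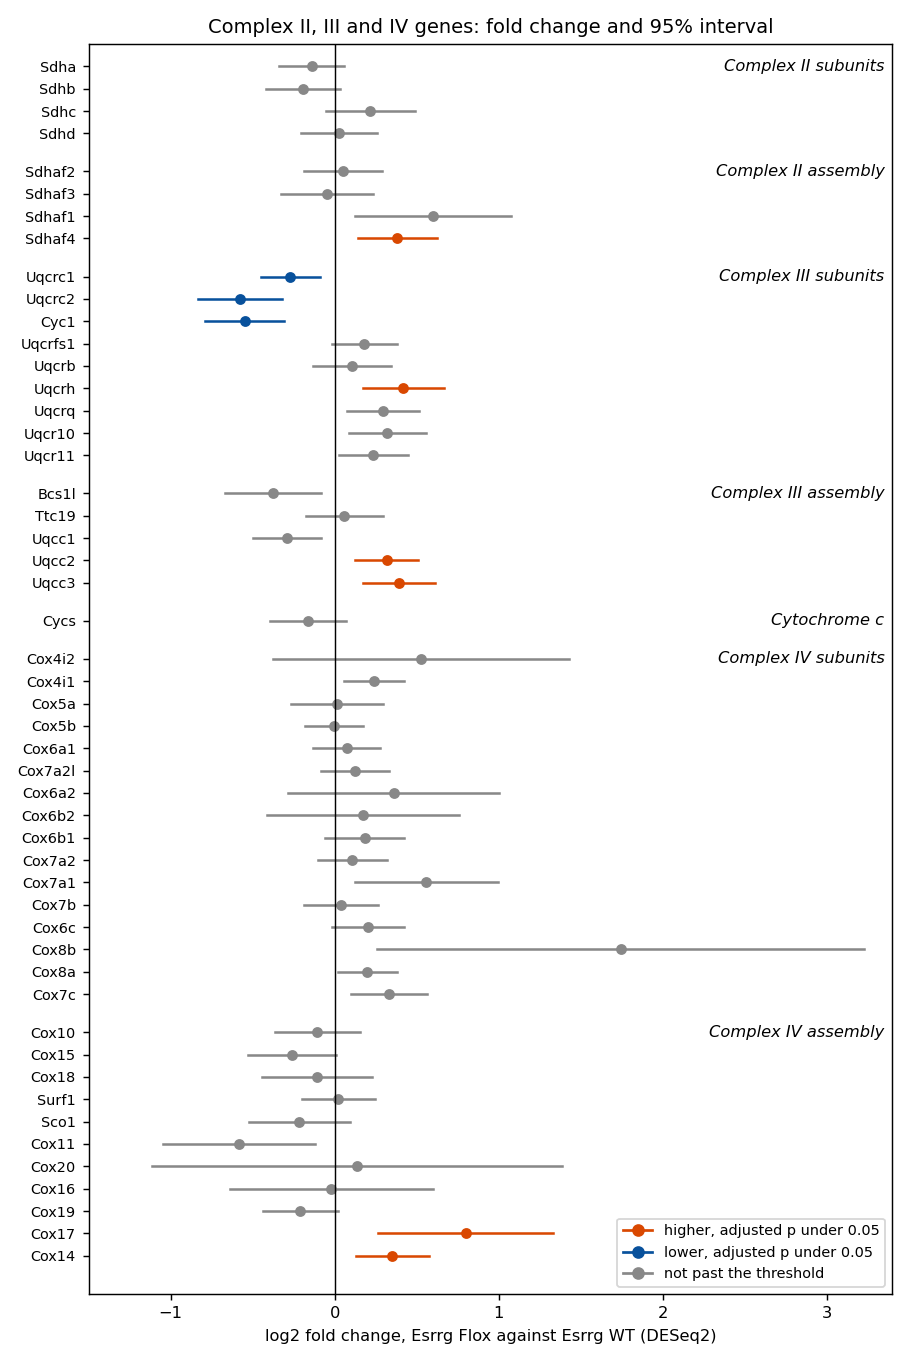
Log2 fold change of Esrrg Flox (2 libraries) against Esrrg WT (3 libraries) for the 50 genes with an adjusted p, grouped by complex and role and ordered within a group by coding length. Points are DESeq2 estimates and lines their 95% intervals, and colour marks the 6 genes that were higher and the 3 that were lower at an adjusted p under 0.05. The lower genes are the large subunits of complex III, and 15 of the 16 complex IV subunits lie to the right of 0.

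Start-site windows were read for the genes of these complexes because ERRγ and the regulators NRF1 and GABP are known to bind promoters of respiratory genes. RefSeq windows of build GRCm38.p6, from 250 bases before to 50 bases after the transcription start, were matched by symbol for 41 of the 53 genes, and among the called genes for 6 of 9. Cox17, Cyc1 and Uqcrc2 had no entry. The ERR response element TNAAGGTCA, on either strand, was found for 1 of these 41 genes (2.44%, Sdhd) and for 1.19% of 17492 protein-coding genes. The shorter core AAGGTCA, which lies inside this motif, was in 2 of 41 (4.88%, Sdhd and Uqcc3), beside 4.73%. The NRF1 core GCATGCGC was in 6 of 41 (14.6%: Sdhb, Cycs, Uqcrc1, Uqcr11, Ttc19 and Cox6a1), beside 3.94%. The GABP site CCGGAAGT was in 8 of 41 (19.5%: Bcs1l, Uqcrh, Uqcr11, Cox8a, Cox10, Cox14, Cox15 and Cox16), beside 5.69%. The stretches printed here are for both genes with the ERR core, for the called genes with an NRF1 or GABP match, and for Cycs, the textbook NRF1 target. They run 5′ to 3′ on the strand of the gene, with the match in capitals, which reads as the reverse complement of the motif in Sdhd, Uqcrc1 and Uqcrh. In Uqcrc1 a further match, GCATGCGC read forward, overlaps the marked match and ends in lower case. A match is a description of these letters and no measure of binding.
Sdhd (chr9:50603800-50603823, minus strand): ggttgtagagTGACCTTGAgccct
Uqcc3 (chr19:8881049-8881085, minus strand): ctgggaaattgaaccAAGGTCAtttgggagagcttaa
Uqcrc1 (chr9:108936667-108936696, plus strand): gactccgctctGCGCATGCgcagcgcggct
Cycs (chr6:50566607-50566644, minus strand): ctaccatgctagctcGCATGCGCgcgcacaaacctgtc
Uqcrh (chr4:116075071-116075096, minus strand): cgaggagtatgccgcACTTCCGGcca
Cox14 (chr15:99725641-99725667, plus strand): agaggtagaagCCGGAAGTtcaaggct

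Of these, Uqcc3, Uqcrh and Cox14 were higher in Flox, Uqcrc1 was lower, and Sdhd and Cycs did not pass, and genes with an NRF1 or a GABP match lay on both sides of 0. The 6 genes with an NRF1 match had log2 fold changes from -0.27 (Uqcrc1) to 0.24 (Uqcr11), and the 8 with a GABP match from -0.38 (Bcs1l) to 0.42 (Uqcrh).

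In complex II, 0 of the 4 subunits passed in DESeq2, 0 had an unadjusted p under 0.05, and edgeR called 0. Sdha, the flavoprotein that oxidises succinate, had 12723, 11625 and 13354 normalized counts in WT 2, 3 and 4 and 11659 and 11159 in Flox 2 and 4. Flox 2 lay just above WT 3, so the groups overlapped (log2 fold change -0.14 with an SE of 0.10, adjusted p = 0.484 by DESeq2, 95% interval -0.34 to 0.058). Sdhb, which holds the iron-sulphur clusters, had 6012, 5726 and 6930.1 normalized counts in WT 2, 3 and 4 and 5676 and 5212 in Flox 2 and 4. Flox lay below WT in both libraries, but the gap between WT 3 and Flox 2 was smaller than the spread within WT, and the difference did not pass (log2 fold change -0.19 with an SE of 0.12, adjusted p = 0.355 by DESeq2). The membrane anchors Sdhc and Sdhd had log2 fold changes of 0.22 (SE 0.14, adjusted p = 0.396 by DESeq2) and 0.027 (SE 0.12, adjusted p = 0.942 by DESeq2), with overlapping groups.

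Among the 4 complex II assembly factors, Sdhaf4 rose (25%, against 4.2% of all genes tested). This factor, which binds the flavinylated Sdha protein before it joins Sdhb (ENSMUSG00000026154.5, chromosome 1), had 681, 684 and 668 normalized counts in WT 2, 3 and 4 and 868 and 897 in Flox 2 and 4. The 3 WT libraries lay within a narrow range and the Flox mean was 30.3% above the WT mean (log2 fold change 0.38 with an SE of 0.12, adjusted p = 0.0316 by DESeq2). In the annotation used for names, 16.3% of its exon bases also lie in exons of Gm26524. Sdhaf1, which serves iron-sulphur insertion into Sdhb, had 134, 111 and 118 normalized counts in WT 2, 3 and 4 and 157 and 211 in Flox 2 and 4. The groups were separate, Flox 4 lay well above Flox 2, and the difference did not pass (log2 fold change 0.60 with an SE of 0.24, adjusted p = 0.107 by DESeq2). Its count is uncertain, because 69.6% of its exon bases are shared with E130208F15Rik and reads that fall on more than 1 gene were not counted. Sdhaf2, which attaches the flavin to Sdha, and Sdhaf3, another iron-sulphur factor, had log2 fold changes of 0.050 and -0.045 with overlapping groups (DESeq2 adjusted p = 0.891 and 0.921).

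Complex III held 4 of the 9 calls among its 9 subunits. Of these subunits 3 were lower (33.3%, against 4.05% of all genes tested) and 1 was higher (11.1%, against 4.2%). Among these 4 the long subunits fell and the short subunit rose. The core proteins Uqcrc1 and Uqcrc2 and cytochrome c1 fell, and the hinge protein Uqcrh rose. Cyc1, the haem-bearing subunit that hands electrons to cytochrome c (ENSMUSG00000022551.9, chromosome 15), had 5559, 5630.3 and 6385 normalized counts in WT 2, 3 and 4 and 4413 and 3597 in Flox 2 and 4. No Flox library reached the lowest WT library, and Flox 4 was the lower of them (log2 fold change -0.55 with an SE of 0.12, adjusted p = 0.000661 by DESeq2), and the mean fell by 31.6% in Flox. Uqcrc2, a core protein on the matrix side (ENSMUSG00000030884.13, chromosome 7), had 2685, 2745 and 3332 normalized counts in WT 2, 3 and 4 and 2092 and 1823 in Flox 2 and 4. Here too WT and Flox did not overlap, WT 4 was the highest library and Flox 4 the lowest (log2 fold change -0.58 with an SE of 0.13, adjusted p = 0.000847 by DESeq2). The exons of Uqcrc2 share 26.6% of their bases with Pdzd9 in the annotation, and the counting did not use strand. Uqcrc1, the partner core protein (ENSMUSG00000025651.15, chromosome 9), had 8873, 8360.3 and 8629 normalized counts in WT 2, 3 and 4 and 7318 and 6985 in Flox 2 and 4. The WT libraries were close together and both Flox libraries lay below them, a smaller fall than those of Cyc1 and Uqcrc2 (log2 fold change -0.27 with an SE of 0.092, adjusted p = 0.0444 by DESeq2).

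Uqcrh, the acidic hinge protein that sits beside cytochrome c1 (ENSMUSG00000063882.13, chromosome 4) and whose window holds a GABP match just before the start, had 8854, 9842 and 10289.9 normalized counts in WT 2, 3 and 4 and 11373 and 14454 in Flox 2 and 4. WT and Flox did not overlap, and Flox 4 lay far above Flox 2 (log2 fold change 0.42 with an SE of 0.13, adjusted p = 0.0187 by DESeq2), and without Flox 4 the log2 fold change was 0.23. The other small subunits Uqcr10, Uqcrq and Uqcr11 were also above all WT libraries in both Flox libraries and did not pass (DESeq2 adjusted p = 0.0709, 0.0855 and 0.174). Their log2 fold changes were 0.32, 0.29 and 0.24. Uqcrb, a matrix-side small subunit, had overlapping groups (log2 fold change 0.10 with an SE of 0.12, adjusted p = 0.726 by DESeq2). Uqcrfs1 is the Rieske iron-sulphur protein and, like Cyc1, carries electrons, but its estimate was positive. It had 5380.5, 5446 and 5511 normalized counts in WT 2, 3 and 4 and 5768 and 6588 in Flox 2 and 4. The Flox values were the highest, without passing (log2 fold change 0.18 with an SE of 0.10, adjusted p = 0.307 by DESeq2, 95% interval -0.017 to 0.38).

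Of the 5 assembly factors of complex III, 2 were called higher (40%, against 4.2% of all genes tested) and 0 lower (against 4.05%). At an unadjusted p under 0.05 in DESeq2, 2 were higher and 2 lower (40% each, against 9.74% and 10.6%). Among protein-coding genes with up to 500 coding bases, 17.1% were called higher. Uqcc2 and Uqcc3, small factors that act with Uqcc1 on newly made cytochrome b, rose. Uqcc3 (ENSMUSG00000071654.7, chromosome 19) had 979.8, 982 and 986 normalized counts in WT 2, 3 and 4 and 1270.0 and 1313 in Flox 2 and 4. The WT libraries were almost equal and both Flox libraries stood clear of it (log2 fold change 0.39 with an SE of 0.11, adjusted p = 0.0116 by DESeq2). Uqcc2 (ENSMUSG00000024208.17, chromosome 17) had 3769.6, 3975 and 3991 normalized counts in WT 2, 3 and 4 and 4703 and 5041 in Flox 2 and 4. Again the groups did not overlap (log2 fold change 0.32 with an SE of 0.098, adjusted p = 0.0221 by DESeq2). Uqcc1, the longer partner of Uqcc2, had 2149, 2079.9 and 2148 normalized counts in WT 2, 3 and 4 and 1822 and 1654 in Flox 2 and 4. The close WT values were above both Flox values, and the difference did not pass (log2 fold change -0.29 with an SE of 0.11, adjusted p = 0.068 by DESeq2). It passed with total counts as library sizes, where Uqcc1 was among the 4 lower genes. Bcs1l, the chaperone that inserts the Rieske protein, had 595, 629 and 676 normalized counts in WT 2, 3 and 4 and 530.3 and 445 in Flox 2 and 4. It too lay lower in both Flox libraries without passing (log2 fold change -0.38 with an SE of 0.15, adjusted p = 0.0981 by DESeq2). Ttc19, which clears fragments of the Rieske protein, had 1341, 1484 and 1392 normalized counts in WT 2, 3 and 4 and 1364 and 1566 in Flox 2 and 4. Its groups overlapped (log2 fold change 0.059 with an SE of 0.12, adjusted p = 0.863 by DESeq2).

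**Figure D2:**
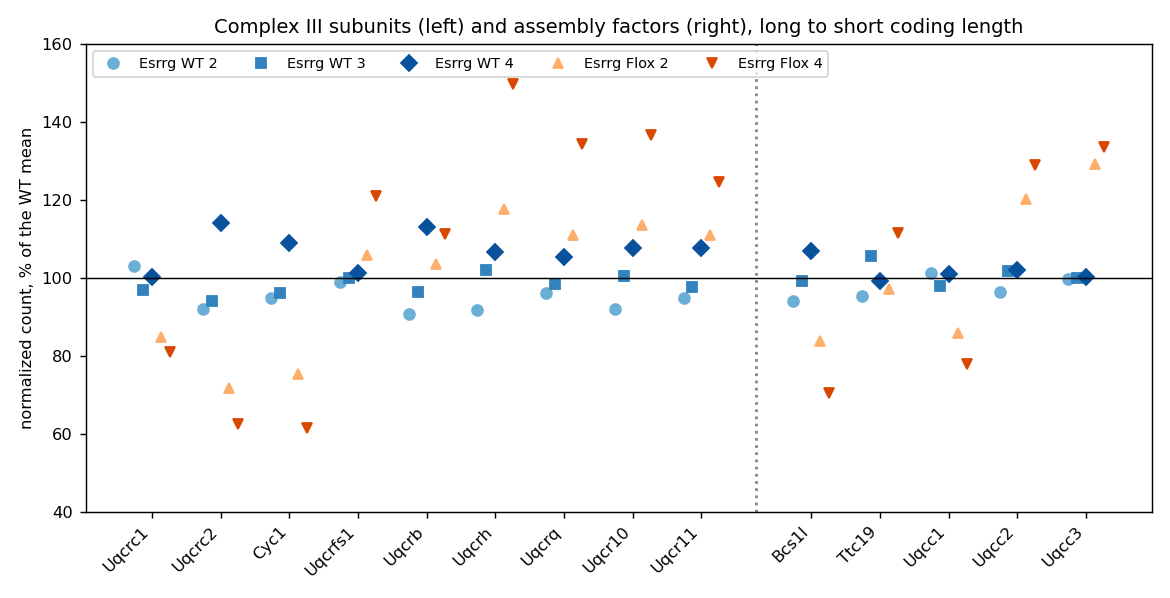
Normalized counts of the complex III subunit genes (left of the dotted line) and assembly factor genes (right), each as a percent of its own WT mean, with a marker for each library and genes ordered from long to short coding length on each side. Both Flox libraries lie below all WT libraries for Uqcrc1, Uqcrc2, Cyc1, Bcs1l and Uqcc1 and above them for Uqcrfs1, Uqcrh, Uqcrq, Uqcr10, Uqcr11, Uqcc2 and Uqcc3.

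Ratios of counts taken within a library do not depend on how libraries are scaled, and they were examined for complex III after the values above were seen. The summed counts of the 5 small subunits (Uqcrb, Uqcrh, Uqcrq, Uqcr10 and Uqcr11) stood to those of Uqcrc1, Uqcrc2 and Cyc1 as 1.93, 2.10 and 2.07 to 1 in WT 2, 3 and 4. In Flox 2 and Flox 4 the ratio was 2.87 and 3.83, so the means were 2.03 ± 0.0898 (SD, n = 3) and 3.35 ± 0.680 (SD, n = 2). Both Flox ratios were above every WT ratio. This restates the calls, since the 3 genes of the denominator were all called lower and Uqcrh was called higher. The ratio also carries the trend on length described below. The 5 small subunits have coding sequences of at most 333 bases and the 3 genes of the denominator of at least 975. Uqcrfs1, a longer subunit with a positive estimate, is not in this ratio. With it added to the denominator the ratio was 1.47, 1.58 and 1.59 in WT and 2.03 and 2.50 in Flox. For Uqcrh to Uqcrc2 alone the ratio was 3.30, 3.59 and 3.09 in WT and 5.44 and 7.93 in Flox. Within complex II, Sdhc to Sdhb gave 0.797, 0.836 and 0.831 in WT, with Flox 2 at 0.913 and Flox 4 at 1.29. No test was made of these ratios, since their genes were chosen from the values above.

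**Figure D3:**
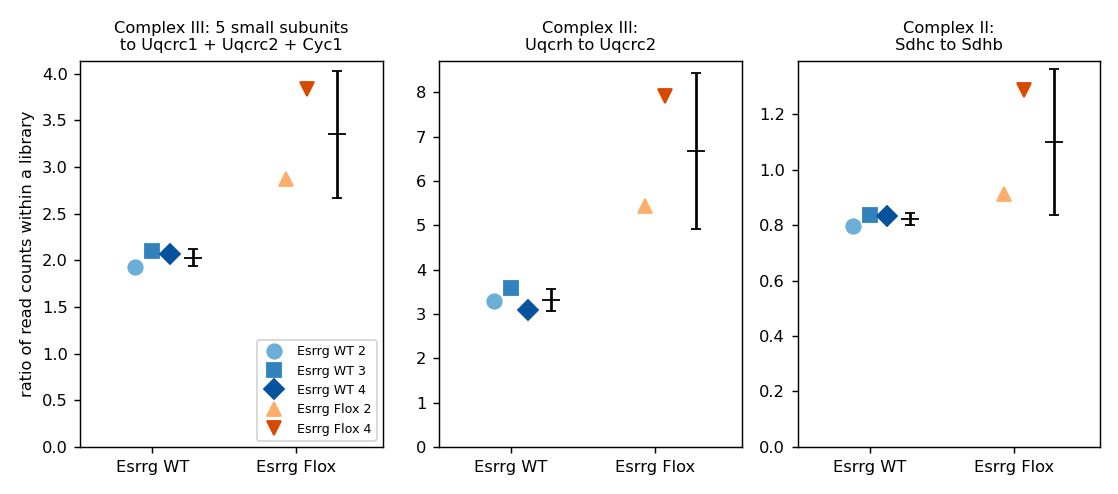
Ratios of read counts within each library for 3 sets of subunits, with 1 marker per library and the mean ± SD of each genotype beside the markers (n = 3 WT and n = 2 Flox). The vertical axes start at 0. In all 3 panels both Flox libraries lie above the WT libraries, and Flox 4 lies above Flox 2.

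Cytochrome c, the mobile carrier between complexes III and IV, did not pass. Cycs had 6871, 6797 and 8307 normalized counts in WT 2, 3 and 4 and 6299 and 6791 in Flox 2 and 4. The Flox values were the lowest, but Flox 4 nearly met WT 3 and WT 4 stood well above the others (log2 fold change -0.16 with an SE of 0.12, adjusted p = 0.493 by DESeq2).

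Among the 16 complex IV subunit genes that could be tested, none passed in DESeq2 on all 5 libraries or in edgeR. DESeq2 called 4.2% of all genes tested higher and 4.05% lower, so 0 calls were near that share. At an unadjusted p under 0.05, 5 were higher (31.25%, against 9.74% of all genes tested). Of the 16 log2 fold changes 15 were positive, with a median of 0.19. Both Flox libraries lay above WT for 6 (37.5%, against 19.9%) and below it for 0 (against 22.5%). Among 1236 protein-coding genes with up to 500 coding bases, 895 were positive, the median was 0.18 and 44.7% lay above WT. Without Flox 4, 11 of the 16 were positive and 5 negative. With the trend on transcript length removed, 6 of the 16 were positive and 10 negative, as Cox5a, Cox6a1, Cox6b1, Cox6b2, Cox6c, Cox7a2, Cox7a2l, Cox7b and Cox8a changed sign and Cox5b stayed below 0. These nuclear-encoded subunits surround a catalytic core encoded in mitochondrial DNA, and several exist as ubiquitous and tissue-restricted isoforms.

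Cox4i1, the ubiquitous form of the largest nuclear-encoded subunit, had 20053, 20050.0 and 19435 normalized counts in WT 2, 3 and 4 and 22331 and 24508 in Flox 2 and 4. Flox was above WT in both libraries and the difference missed the threshold (log2 fold change 0.24 with an SE of 0.093, adjusted p = 0.0891 by DESeq2). In the annotation, 20.1% of its exon bases are shared with Emc8. Cox4i2, the form known from lung, had 26.3, 21.4 and 33.6 normalized counts in WT 2, 3 and 4 and 35.5 and 42.7 in Flox 2 and 4, and at this depth the difference was not resolved (log2 fold change 0.53 with an SE of 0.46, adjusted p = 0.596 by DESeq2). Per kilobase of transcript, Cox4i2 made up 0.143% ± 0.0349 of both genes' counts in WT and 0.174% ± 0.0112 in Flox (SD, n = 3 and 2).

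Cox6a1 had 15486, 14823 and 16824 normalized counts in WT 2, 3 and 4 and 15670.0 and 17398 in Flox 2 and 4, and Cox6a2, the heart and muscle form, had 65.3, 111 and 89.4 in WT against 85.5 and 142 in Flox. In both genes the groups overlapped (log2 fold changes 0.074 and 0.36, DESeq2 adjusted p = 0.783 and 0.62). Cox6b1 had 10770.4, 11316 and 12336 normalized counts in WT 2, 3 and 4 and 11572 and 14480.2 in Flox 2 and 4, and Cox6b2, known from testis, had 96.9, 77.4 and 132 in WT against 127 and 103 in Flox. These groups overlapped as well (log2 fold changes 0.18 and 0.17, DESeq2 adjusted p = 0.43 and 0.83). Per kilobase, Cox6a2 made up 0.474% of its pair in WT and 0.569% in Flox, and Cox6b2 0.925% and 0.946%, differences within the spread of the libraries.

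Cox7a1, the heart and skeletal muscle form of subunit 7a, had 155, 156 and 183 normalized counts in WT 2, 3 and 4 and 204 and 281 in Flox 2 and 4. The Flox values were the highest, Flox 4 the more so, and the difference did not pass (log2 fold change 0.56 with an SE of 0.22, adjusted p = 0.102 by DESeq2). Cox7a2, the form present in most tissues, had 6808, 7114 and 7805 normalized counts in WT 2, 3 and 4 and 7411 and 8203 in Flox 2 and 4 and overlapping groups (log2 fold change 0.11 with an SE of 0.11, adjusted p = 0.654 by DESeq2). As a share of both genes per kilobase, Cox7a1 was 3.67%, 3.54% and 3.77% in the WT libraries (mean 3.66% ± 0.115, SD, n = 3) and 4.40% and 5.44% in the Flox libraries (mean 4.92% ± 0.731, SD, n = 2). The WT shares agreed closely and both Flox shares lay above them, but the SD in Flox was large and rests on 2 libraries. Cox7a2l, which takes part in joining complexes III and IV into supercomplexes, had 5131, 5449 and 4997 normalized counts in WT 2, 3 and 4 and 6039.6 and 5296 in Flox 2 and 4, with Flox 4 inside the WT range (log2 fold change 0.13 with an SE of 0.11, adjusted p = 0.572 by DESeq2).

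Cox8a had 15384, 16143 and 16375 normalized counts in WT 2, 3 and 4 and 17772 and 18899 in Flox 2 and 4. Flox lay above WT in both libraries without passing (log2 fold change 0.20 with an SE of 0.092, adjusted p = 0.178 by DESeq2). Cox8b, another heart and muscle isoform, had 12.6, 6.11 and 2.88 normalized counts in WT 2, 3 and 4 and 20.2 and 27.8 in Flox 2 and 4. Among the genes with a mean of at least 10 normalized counts over the libraries, this was the largest estimated rise. The WT mean of Cox8b was below 10, so the gene met this limit only through its Flox values. Its rank therefore depends on the rise itself and is no evidence for it. WT itself ranged over several fold at these counts and the difference did not pass (log2 fold change 1.74 with an SE of 0.76, adjusted p = 0.147 by DESeq2, 95% interval 0.26 to 3.23). The 8 muscle markers summed to 10.04 to 13.4 CPM in WT, 13.4 in Flox 2 and 10.8 in Flox 4, with 0 of the 3 tested genes called by DESeq2 (0 at an unadjusted p under 0.05). Cox8c had 0 counts in all 5 libraries, which allows up to 0.130 to 0.145 CPM (3 counts, counting error only).

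Cox7b had 7773, 8344 and 9436 normalized counts in WT 2, 3 and 4 and 8297 and 9189.6 in Flox 2 and 4, and Cox7b2, a testis form, had 7.37, 5.10 and 4.80 in WT against 6.72 and 5.96 in Flox. Neither separated the genotypes (log2 fold change of Cox7b 0.038, DESeq2 adjusted p = 0.918), and Cox7b2 was too low for an adjusted p. The other subunits ranged from -0.0034 for Cox5b to 0.33 for Cox7c. Cox7c came nearest to the threshold among the complex IV subunits (log2 fold change 0.33 with an SE of 0.12, adjusted p = 0.0569 by DESeq2), with both Flox libraries above WT. It passed when WT 4 was left out (0.38, DESeq2 adjusted p = 0.0221). The log2 fold change was 0.46 without Flox 2 and 0.18 without Flox 4. The count of Cox7c is uncertain because 44.4% of its 100-base stretches also occur in other genes, pseudogenes among them.

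**Figure D4:**
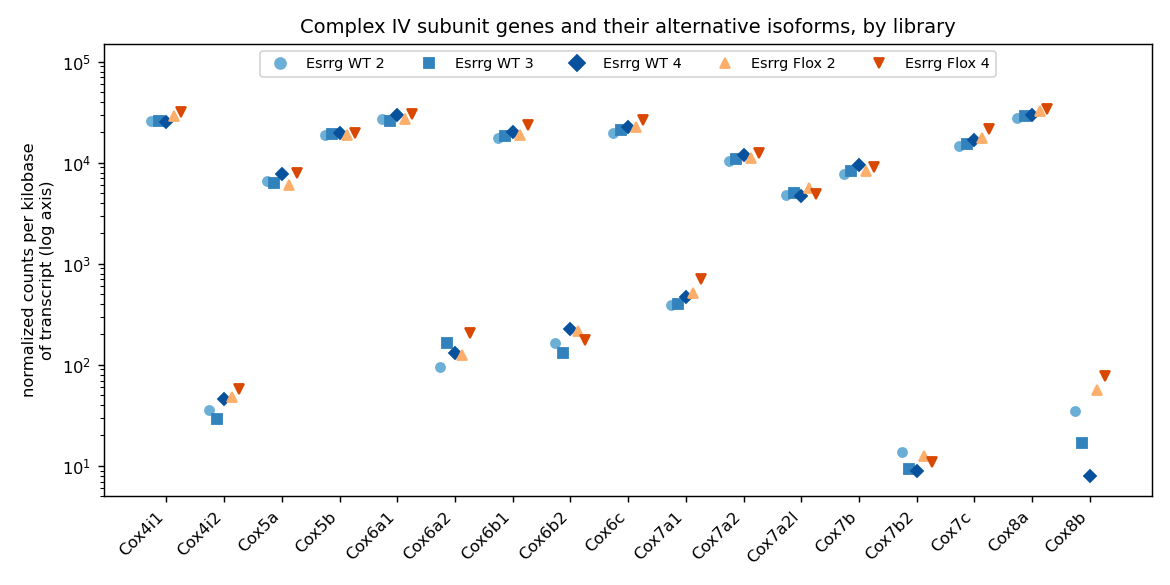
Level of each complex IV subunit gene with a count, in normalized counts per kilobase of transcript on a log axis, with 1 marker per library. The tissue-restricted isoforms Cox4i2, Cox6a2, Cox6b2, Cox7a1, Cox7b2 and Cox8b sit far below their ubiquitous partners in all 5 libraries.

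By level per kilobase of transcript in WT, complex IV subunits filled the top of the order: Cox8a (29032 normalized counts per kilobase), Cox6a1 (27515) and Cox4i1 (25942), followed by Cox6c, Cox5b and Cox6b1. Cox4i1 and Cox6c did not overlap over the 3 WT libraries, and the other neighbours in this order did. Uqcrh (17664) was the most abundant subunit outside complex IV. The large complex III subunits lay lower, Uqcrc1 at 5215, Cyc1 at 3854 and Uqcrc2 at 1541, and Sdha lay at 4334. Near the foot of the order were Cox8b (20.04), Cox17 (19.3) and Cox7b2 (10.6), with Sco2 (0.281) below them. Assembly factors were spread widely, from 7824 for Uqcc2 down to Cox17 and below it Sco2. Lengths are those of the principal transcript of the reference annotation, so a gene read mainly from a shorter transcript is placed too low.

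Among the 11 complex IV assembly factors that could be tested, Cox14 and Cox17 rose (18.2%, against 4.2% of all genes tested), while 7 of the 11 log2 fold changes were negative (median -0.10). Both Flox libraries lay below WT for 4 of the 11 (36.4%, against 22.5% of all genes tested). Cox14, which acts in the regulated synthesis of the catalytic subunit Cox1 (ENSMUSG00000023020.4, chromosome 15), had 3436, 3519 and 3533 normalized counts in WT 2, 3 and 4 and 4035 and 4887 in Flox 2 and 4. The WT values were close together, both Flox values were higher, and Flox 4 was far above Flox 2 (log2 fold change 0.35 with an SE of 0.11, adjusted p = 0.0311 by DESeq2). Without Flox 4 the log2 fold change was 0.20.

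Cox17 (ENSMUSG00000046516.11, chromosome 16) is the copper chaperone of the intermembrane space, which passes copper to Sco1, Sco2 and Cox11 for the copper centres of complex IV. It had 73.7, 70.3 and 70.1 normalized counts in WT 2, 3 and 4 and 118 and 130.2 in Flox 2 and 4. The 3 WT libraries and the 2 Flox libraries each lay close together, with a clear gap between genotypes, and the mean was 73.9% higher in Flox (log2 fold change 0.80 with an SE of 0.27, adjusted p = 0.0431 by DESeq2). Without Flox 4 the log2 fold change was 0.72, and of the 6 higher genes Cox17 alone passed with the trend on transcript length removed. The gene is counted at a low level, and 6.96% of its exon bases lie in Gm21987. Its coding sequence (GENCODE M21, 189 bases, 63 codons, stop codon left off) is shown because it was the gene that passed both thresholds and because its function rests on its cysteines. The 6 codons for cysteine, the residue that binds copper and forms the disulphides of the folded protein, are in capitals.
Cox17: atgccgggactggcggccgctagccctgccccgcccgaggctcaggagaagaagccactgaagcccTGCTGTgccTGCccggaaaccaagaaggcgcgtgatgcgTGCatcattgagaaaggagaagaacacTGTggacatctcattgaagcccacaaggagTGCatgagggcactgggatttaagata

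The factors downstream of Cox17 did not pass. Both Flox libraries lay below WT in those measured, Cox11 and Sco1, as they did for 22.5% of all genes tested. Cox11, which delivers copper to the catalytic subunit, had 295, 257 and 283 normalized counts in WT 2, 3 and 4 and 234 and 137 in Flox 2 and 4. Flox was below WT in both libraries, in Flox 4 far more than in Flox 2 (log2 fold change -0.58 with an SE of 0.24, adjusted p = 0.109 by DESeq2, -0.25 without Flox 4), and its count is uncertain because 56.2% of its exon bases lie in exons of Tom1l1. Sco1, a copper-binding metallochaperone, had 381, 366 and 389 normalized counts in WT 2, 3 and 4 and 322 and 331 in Flox 2 and 4. The groups were separate, with Flox lower, and the difference did not pass (log2 fold change -0.21 with an SE of 0.16, adjusted p = 0.493 by DESeq2). Sco2, its paralog, had 1 read in WT 2 and 0 in the other 4 libraries, and 91.8% of its exon bases overlap Tymp, so its level was not measured.

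The haem A pathway showed no called change by DESeq2 (0 at an unadjusted p under 0.05) or by edgeR. Cox10, which makes haem O, had 793, 815 and 857 normalized counts in WT 2, 3 and 4 and 707 and 822 in Flox 2 and 4, with Flox 4 inside the WT range (log2 fold change -0.10 with an SE of 0.13, adjusted p = 0.751 by DESeq2). Cox15, which turns haem O into haem A, had 702, 616 and 665 normalized counts in WT 2, 3 and 4 and 565 and 538 in Flox 2 and 4. Both Flox libraries lay below WT (log2 fold change -0.26 with an SE of 0.14, adjusted p = 0.269 by DESeq2). Surf1, which helps place haem A in the catalytic subunit, had 2599, 2512 and 2598 normalized counts in WT 2, 3 and 4 and 2828 and 2391 in Flox 2 and 4 and overlapping groups (log2 fold change 0.022 with an SE of 0.11, adjusted p = 0.95 by DESeq2). The remaining factors Cox16, Cox18, Cox19 and Cox20 had log2 fold changes of -0.21 to 0.13 and none passed (DESeq2 adjusted p = 0.303 and above, 0 at an unadjusted p under 0.05). Cox16 and Cox20 are uncertain, since 88.8% and 83.2% of their exon bases lie in Gm20498 and Hnrnpu.

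The called genes differed in length. All 6 higher genes have coding sequences of at most 408 bases, and the 3 lower genes have at least 975. Across the 50 genes, the log2 fold change fell with the log2 of the coding length (Pearson r = -0.63, Spearman rho = -0.68, across genes that share the same 5 libraries). Without Flox 4 these values were -0.57 and -0.64. Over 14016 protein-coding genes the relation had the same sign and was weaker (r = -0.16, rho = -0.19). Of the 32 genes of these complexes with up to 500 coding bases, 6 (18.75%) were higher, beside 211 of 1236 such protein-coding genes (17.1%), so the rises were near the share found in all short genes. Their median log2 fold change was 0.19, beside 0.18. Of their 18 genes with over 500 coding bases, 3 (16.7%) were lower, beside 603 of 12780 (4.72%), with medians of -0.17 and -0.028. Cytosolic ribosomal protein genes, another set of short and abundant mRNAs, had 49 of 75 higher and a median of 0.39.

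With the trend of counts on transcript length removed in each library, Cox17 alone was still called higher (3.28% of all genes were), and Cyc1, Sdhb, Uqcrc1 and Uqcrc2 were called lower (3.08% of all genes were). The median log2 fold change of the 50 genes was then -0.068. The 3 falls were thus called with and without this correction, and 5 of the 6 rises lost their call. The estimates of these 5 shrank, from 0.32 to 0.032 for Uqcc2, 0.35 to 0.13 for Cox14, 0.42 to 0.15 for Uqcrh, 0.38 to 0.15 for Sdhaf4 and 0.39 to 0.20 for Uqcc3 (log2 scale), while Cox17 stood at 0.87. The transcript of Cox17, 3690 bases against 500 to 821 for these 5, placed it among long genes in this correction.

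**Figure D5:**
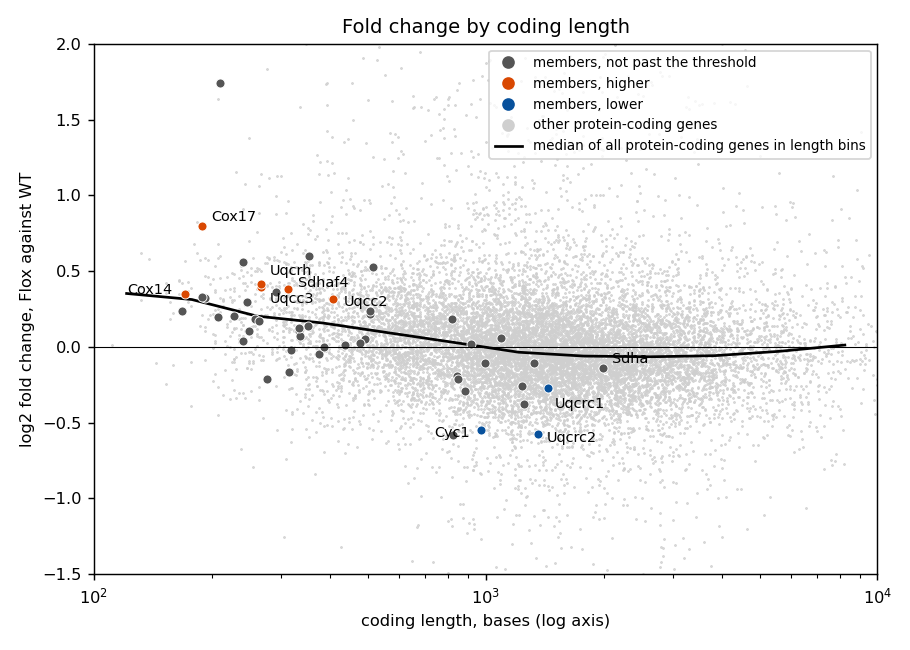
Log2 fold change of Flox against WT by coding length (log axis) for the 50 genes (large points, coloured where called) and for the other protein-coding genes (small grey points, those beyond the limits of the vertical axis not shown). The line is the median of all protein-coding genes in bins of length. The 6 higher genes lie among the short genes, where the line is above 0, and Uqcrc1, Uqcrc2 and Cyc1 lie below the line.

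Of 21 further genes of complexes III and IV listed beside the 53 (mitochondrially encoded subunits, Ndufa4 and other assembly or stability factors), 20 were in the table, 16 had an adjusted p and 0 passed in DESeq2. Over all genes tested 4.2% were higher and 4.05% lower, so 0 calls were near that share. At an unadjusted p under 0.05, 5 were higher (31.25%, against 9.74%) and 0 lower (against 10.6%), and the median log2 fold change was 0.15. Both Flox libraries lay above WT for 8 of the 16 (50%, against 19.9%) and below for 3 (18.75%, against 22.5%). The mitochondrially encoded cytochrome b gene of complex III, mt-Cytb, had 1254, 1082 and 1395 normalized counts in WT 2, 3 and 4 and 1614 and 5088 in Flox 2 and 4. Flox 4 stood alone here (log2 fold change 1.43 with an SE of 0.57, adjusted p = 0.104 by DESeq2, 0.37 without Flox 4). The catalytic subunit gene of complex IV, mt-Co1, had 3239.7, 2721 and 3420.4 normalized counts in WT 2, 3 and 4 and 3713 and 6471 in Flox 2 and 4, again with Flox 4 apart (log2 fold change 0.70 with an SE of 0.32, adjusted p = 0.166 by DESeq2). For mt-Co2 and mt-Co3 at most 14.9 normalized counts were recorded in any library, and counts of mitochondrial genes are uncertain because reads that also match nuclear copies were not counted. The tagged L10a is a protein of cytosolic ribosomes. Whether reads of mitochondrially encoded genes were bound to these ribosomes or were background of the pulldown was not tested. Pet100, a factor for complex IV assembly, came nearest to the threshold (log2 fold change 0.39 with an SE of 0.15, adjusted p = 0.0765 by DESeq2).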

How the data were processed

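Ribosome-bound RNA of 3 Esrrg WT and 2 Esrrg Flox midbrain pools was sequenced as poly(A)-selected, non-strand-specific libraries. The deposited table holds raw read counts per gene, made by the authors with Trim Galore (0.6.6), STAR (2.7.9a) and HTSeq (0.11.3, versions from the submitters' processing notes). Those notes name build GRCm39 and the study's methods GRCm38, so coordinates are given only for promoter stretches, which were read from RefSeq windows of GRCm38.p6. Reads outside genes (3.18% to 4.45% per library), on more than 1 gene (5.62% to 5.78%) or at more than 1 place (3.60% to 4.23%) enter no gene's count, which lowers genes that overlap others or have pseudogene copies.

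Names came from GENCODE M21 by ID without version (52093 of 53700, 97.0%). All genes with a count were fitted with DESeq2 1.42.0 in R 4.3.3 (genotype as the design, two-sided Wald test, independent filtering at 0.05, Benjamini-Hochberg adjustment), the tool of the study. The threshold for a call was an adjusted p under 0.05. Counts divided by DESeq2's size factors are given as normalized counts, and levels per kilobase use the principal transcript. Alternatives were edgeR 4.0.16 (quasi-likelihood, TMM), TMM or total-count library sizes, at least 10 counts in at least 2 libraries, no independent filtering, the transcript length trend removed, a replicate block and each library left out. Scripts were tested on simulated data.

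The genes and lists were chosen with earlier results of these data known. Values by library are given for called genes, the redox core, complex IV paralogs, copper, haem and Rieske factors, and the 3 largest rises and falls.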

Additional observations from a re-analysis of the deposited data

How the results depend on the processing

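By DESeq2, 6 of the 50 genes were higher, 3 were lower and the median log2 fold change was 0.11. TMM library sizes and the filter on low counts left both counts as they were. The number of higher genes was 0 with edgeR (15 at an unadjusted p under 0.05), 3 with total counts as library sizes, 3 without independent filtering and 1 with the length trend removed. The number of lower genes was 0 with edgeR (7 at an unadjusted p under 0.05), 4 with total counts, 2 without independent filtering and 4 with the length trend removed, where the median was -0.068. Leaving out 1 library gave 0 to 6 higher genes, 0 to 3 lower genes and medians of 0.013 to 0.16. The low ends came from leaving out Flox 4, where 42 of the genes kept an adjusted p (3 higher and 2 lower at an unadjusted p under 0.05). There were also 0 higher genes without WT 2 and without WT 3. The genes behind these counts were not always those of the main fit. Without WT 4, 6 of the 9 stayed called, and Uqcr10 and Cox7c passed as well (DESeq2 adjusted p = 0.0305 and 0.0221). The log2 fold change of Esrrg ran from -0.55 without Flox 2, where it passed with the spread taken from the WT libraries alone (DESeq2 adjusted p = 0.00582), to -0.19 without Flox 4.

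The replicate numbers 2 and 4 occur in both genotypes, and same-numbered libraries deviated together only weakly (r = 0.0932 and 0.0874 over 16711 genes, 2 pairs). Both values rest on the same difference between the Flox libraries, so they cannot show whether same-numbered libraries share a batch. The main fit took them to share a number and no more. With the replicate block 1 gene was higher (Uqcrh) and 2 were lower (Cyc1 and Uqcrc2), the median was 0.075 and Esrrg stood at -0.39.

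None of the 9 called genes changed sign. With the length trend removed, 15 of the 50 genes did: Cox5a (-0.23), Cox6a1 (-0.19), Cox6b1 (-0.067), Cox6b2 (-0.077), Cox6c (-0.016), Cox7a2 (-0.13), Cox7a2l (-0.015), Cox7b (-0.12), Cox8a (-0.069), Cox20 (-0.15), Sdhd (-0.086), Surf1 (-0.10), Uqcr11 (-0.068) and Uqcrb (-0.17) turned negative and Sdhaf3 (0.032) positive. Cox7b2, too low for an adjusted p, stood at -0.13. With total counts Cox5a (-0.021), Sdhd (-0.0074) and Surf1 (-0.010) changed sign, with the low-count filter Cox5b (0.00089), and with the replicate block Cox5a (-0.053) and Cox20 (-0.0046). Over the fits with 1 library left out, 13 genes changed sign at least once. Lowest without Flox 4 and highest without Flox 2 were Cox5a (-0.22 to 0.21), Cox5b (-0.043 to 0.032), Cox6a1 (-0.0073 to 0.15), Cox6a2 (-0.056 to 0.68), Cox10 (-0.22 to 0.00014), Sdhaf2 (-0.052 to 0.14), Sdhd (-0.071 to 0.12) and Ttc19 (-0.047 to 0.16). Cox7b ran from -0.042 (without Flox 4) to 0.11, Surf1 from -0.10 (without Flox 2) to 0.13, Cox16 from -0.14 to 0.15 (without WT 4), Sdhaf3 from -0.12 to 0.017 (without WT 4) and Cox20 from -0.12 (without Flox 2) to 0.34, with 0.12 without WT 2. The cause was not tested beyond what each alternative changes. With 2 Flox libraries the spread in Flox rests on 1 difference, low counts gave wide errors (SE 0.64 for Cox20, 0.76 for Cox8b and 1.00 for Cox7b2, log2 scale), and Cox11, Cox16, Cox20, Sco2 and Sdhaf1 have most of their exon bases inside exons of other genes.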
